A study of Mus musculus with 12 samples.

Results

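Hdc, Hpgds and Ptgs2 encode enzymes that make the small-molecule mediators of mast cells. Histidine decarboxylase (Hdc) makes histamine from histidine, prostaglandin-endoperoxide synthase 2 (Ptgs2, also called cyclooxygenase-2) makes the prostaglandin precursor PGH2 from arachidonic acid, and hematopoietic prostaglandin D synthase (Hpgds) turns PGH2 into prostaglandin D2. The genes were chosen by these functions, and they account for 3 of the 734 endogenous mRNAs on the panel. All 3 passed the filter on low counts (at least 20 counts in at least 3 libraries), as did 545 of the 734 probes.

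The libraries came from primary mast cells grown from the bone marrow of young adult C57BL/6 mice for at least 4 weeks with interleukin-3. All cells were edited with Cas9 and a donor that places the green fluorescent protein zsGreen in the target gene, and were sorted on zsGreen. The target was Kit, which encodes the stem cell factor receptor, in the c-Kit KO cells, and Mettl3, which encodes the catalytic subunit of the mRNA N6-adenosine methyltransferase, in the Mettl3 KO cells. Each genotype was left unstimulated or activated for 4 h with complexes of IgE and antigen (IgE+Ag), and each of the 4 groups has 3 replicates numbered 1 to 3. The comparison therefore asked whether cells lacking Mettl3 express these mediator genes differently at rest and after activation of the IgE receptor. The controls were themselves edited and lack c-Kit, both populations were polyclonal, and the RNA was bulk RNA, in which fewer expressing cells and less mRNA per cell cannot be told apart.

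Mast cells keep ready-made histamine in their granules and release it within minutes of IgE receptor crosslinking, and Hdc is the only known enzyme that makes it in mammals. Prostaglandin D2 is instead made on demand: arachidonic acid freed from membranes is converted by the constitutive cyclooxygenase Ptgs1 or the inducible cyclooxygenase Ptgs2, and the product is passed to Hpgds. A second branch of arachidonic acid metabolism, through Alox5 and its helper protein Alox5ap, leads to the leukotrienes.

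The genes lie on different chromosomes and have different starts. In the RefSeq annotation of GRCm38.p6, Ptgs2 spans chr1:150100031-150108234 on the plus strand, Hdc spans chr2:126593659-126624025 on the minus strand, and Hpgds spans chr6:65117293-65144981 on the minus strand. The panel reads each mRNA with 1 probe, whose target lies at transcript position 745 for Hdc, 425 for Hpgds and 675 for Ptgs2, so that the counts do not separate isoforms. Sequences next to the annotated starts are shown as a description of the 3 genes. They are RefSeq sequences of GRCm38.p6, written 5′ to 3′ on the strand of the gene, with motif matches in capitals, and they could be matched for 3 of 3 genes.

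Hdc, the 100 bases before the start (chr2:126618679-126618778): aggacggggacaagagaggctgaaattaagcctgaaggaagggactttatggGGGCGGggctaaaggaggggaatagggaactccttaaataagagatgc
Hpgds, 30 bases at -187 to -158 (chr6:65144888-65144917): gactttactctTTATGCAAatacgttggac
Ptgs2, the 100 bases before the start (chr1:150099931-150100030): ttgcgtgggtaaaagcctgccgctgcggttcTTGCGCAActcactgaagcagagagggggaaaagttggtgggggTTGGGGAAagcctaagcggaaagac
Ptgs2, 30 bases after the start, at 3 to 32 (chr1:150100033-150100062): agtcaccactACGTCACGTGgagtccgctt

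The annotated Hdc and Hpgds genes extend further 5′ than these starts, through other predicted transcripts. For all 3 genes, Ptgs2 included, positions are counted from the RefSeq start used here, and whether transcription begins there was not tested. Across the 300 bases from 250 before to 50 after each start, 7 motifs were searched on both strands. The C/EBP motif TTNNGNAA matched in Ptgs2 at -69 and -25 and in Hpgds at -176 and -144, and 40.7% of 32851 mouse promoters of this length hold it. The core of the cAMP response element, TGACGT, matched only in Ptgs2, at position 13, where it overlaps a match to the E-box CACGTG at position 17, and these motifs occur in 7.51% and 7.15% of promoters. The GC box GGGCGG, present in 35.7% of promoters, matched in Hdc at -48 and in Ptgs2 at -170. The TATA box TATAAA (13.6%), the GATA core GATAA (25.4%) and the AP-1 motif TGANTCA (7.81%) matched in none of the 3 windows. A match describes letters in these windows and was not tested for any effect on the counts.

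Endogenous probes received 504238 to 737910 counts per library, and the 8 negative control probes averaged 7.13 to 22.8 counts. Counts were scaled by the geometric mean of 20 housekeeping probes, by factors of 0.715 to 1.36, and values below are scaled counts of 1 probe, which are compared between libraries and not between genes. The 9 mast cell markers were all tested, and their summed scaled counts ranged from 354372 to 503262 in unstimulated and from 164375 to 303380 in stimulated libraries. Markers of macrophages summed to 144 to 238, of neutrophils to 73.8 to 130, of eosinophils to 56.4 to 175 and of dendritic cells to 33.7 to 59.9, with 7 of 10, 2 of 8, 1 of 5 and 1 of 4 markers above the filter. The eosinophil sum was 112 to 175 in the stimulated libraries labelled Mettl3 KO against 56.4 to 115 in the others, through Siglecf, while the granule genes Epx and Prg2 had at most 21.6 and 28.3 scaled counts in any library. Its part in the results below was not tested. The Kit probe lies outside the edited exon, and Mettl3 has no probe. How far transcripts of the edited Kit gene, which holds a polyA-STOP cassette, reach the probe was not tested. Its counts are therefore no direct check of the edit. Without stimulation, the Kit probe gave 1856, 2856 and 2826 scaled counts under the c-Kit KO label and 4057, 2533 and 2456 under the Mettl3 KO label, so that replicates 2 and 3 ran against the labels. With stimulation it gave 1159, 1613 and 738 under the c-Kit KO label and 1845, 1771 and 1550 under the Mettl3 KO label, lower for c-Kit KO in 3 of 3 pairs, and neither difference passed the test (adjusted p = 0.997 and 0.469). The genotypes below are those on the labels.

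Hdc rose 4.66-fold and 4.83-fold in the c-Kit KO and Mettl3 KO labelled libraries, and Ptgs2 rose from near background in those labelled Mettl3 KO, to 98.5 to 1365 scaled counts. In the main edgeR fit, which has no replicate block, neither Ptgs2 in c-Kit KO nor Hpgds in either genotype passed the adjusted threshold (adjusted p = 0.0699, 0.374 and 0.0748). With the replicate number as a block, Ptgs2 in c-Kit KO (0.0212) and Hpgds in Mettl3 KO (0.00760) did pass it. Hpgds in c-Kit KO (0.0515) did not. Between the genotypes, no difference in Hdc or Hpgds passed the test, and Ptgs2 was higher in 3 of 3 stimulated pairs without passing the adjusted threshold.

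**Figure D1:**
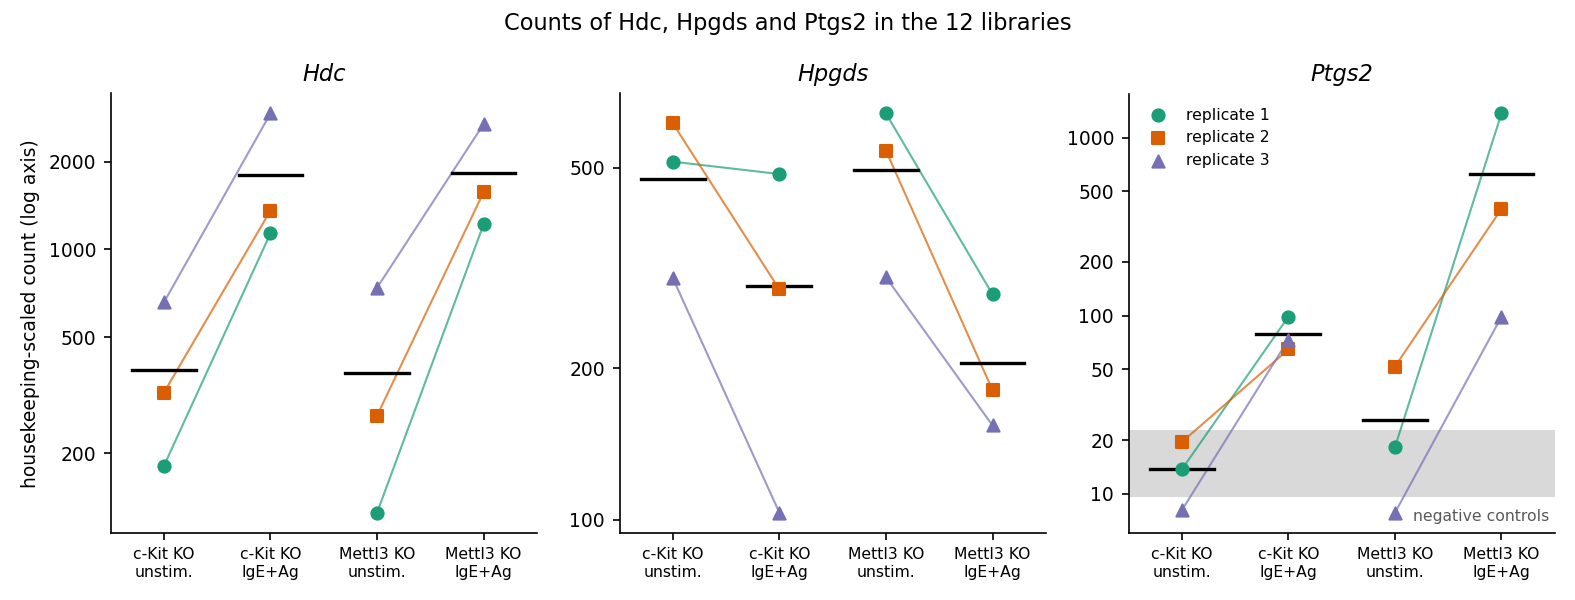
Housekeeping-scaled counts (log axis) of Hdc, Hpgds and Ptgs2 in the 12 libraries, by labelled genotype and stimulation. Points are libraries, lines join libraries of the same replicate number, black bars are group means, and the grey band spans the scaled mean of the negative control probes in each library (9.76 to 22.4). Hdc is higher at the stimulated end of each of its 6 lines, Hpgds is lower at the stimulated end of each of its 6, and the stimulated Mettl3 KO libraries spread from 98.5 to 1365 for Ptgs2.

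Histamine synthesis was represented by Hdc alone, as the panel has no other gene of histamine synthesis, storage or reception on the lists used. Hdc was detected in every library, with raw counts of 123 to 3991. In the libraries labelled c-Kit KO, its scaled counts were 181, 322 and 658 without stimulation and 1134, 1358 and 2924 with IgE+Ag, for replicates 1, 2 and 3. All 3 stimulated libraries were above all 3 unstimulated ones, which held for 18.3% of the tested probes. In the libraries labelled Mettl3 KO, Hdc was 125, 269 and 738 without stimulation and 1217, 1569 and 2687 with it. Here too the stimulated libraries were all above the unstimulated ones, which held for 26.2% of the tested probes. In each of the 4 groups replicate 3 was the highest and replicate 1 the lowest.

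Hdc rose 4.66-fold with stimulation in libraries labelled c-Kit KO (95% interval 1.70 to 12.8, log2 fold change 2.22 ± 0.67 SE, n = 3 and 3, adjusted p = 0.0369, from the edgeR quasi-likelihood fit and adjusted after Benjamini and Hochberg over 545 probes). In this comparison 18.9% of the probes were called and 12.1% were called as higher, and Hdc ranked 41 from the highest change. In libraries labelled Mettl3 KO, Hdc rose 4.83-fold (95% interval 1.76 to 13.3, log2 fold change 2.27 ± 0.67 SE, n = 3 and 3, adjusted p = 0.0223), where 32.7% of the probes were called, 22% as higher, and Hdc ranked 54. The ratios within same-numbered pairs were 6.27, 4.21 and 4.45 for c-Kit KO and 9.75, 5.84 and 3.64 for Mettl3 KO. Hdc was thus higher after stimulation in 3 of 3 pairs of each genotype, as were 28.6% of the probes in c-Kit KO and 36% in Mettl3 KO.

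Both the sizes and the calls moved when 1 library was left out, while the direction stayed. The log2 fold change then ran from 1.68 to 2.84 for c-Kit KO and from 1.86 to 3.22 for Mettl3 KO. The adjusted p for c-Kit KO rose above 0.05 without its stimulated replicate 2 (0.0518) or 3 (0.147) and without its unstimulated replicate 1 (0.138) or 2 (0.0937). Without unstimulated replicate 3 the log2 fold change was 2.84. For Mettl3 KO, the adjusted p rose above 0.05 without stimulated replicate 3 (0.0609) and without unstimulated replicate 1 (0.0681) or 2 (0.0762). Without unstimulated replicate 3 the log2 fold change was 3.22. Scaling by TMM gave adjusted p = 0.0551 for c-Kit KO and 0.0519 for Mettl3 KO. With the replicate number as a block in edgeR, the log2 fold change of Hdc was 2.30 ± 0.27 SE for c-Kit KO (adjusted p = 0.000148). For Mettl3 KO it was 2.54 ± 0.27 SE (adjusted p = 6.95e-05). Those fits called 28.6% and 40.9% of the probes.

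No difference in Hdc between the genotypes passed the test. Unstimulated libraries labelled Mettl3 KO had 0.974 times the Hdc of those labelled c-Kit KO (95% interval 0.369 to 2.57, adjusted p = 0.997), and stimulated ones had 1.01 times (95% interval 0.385 to 2.65, adjusted p = 0.993). The interaction of genotype and stimulation, which is the ratio of the stimulation fold changes, was 1.04 (95% interval 0.264 to 4.07, adjusted p = 0.993), and each of these 3 values changed sign on the log2 scale under TMM or DESeq2 scaling. With the replicate number as a block, the intervals narrowed to 0.597 to 1.33 without and 0.710 to 1.56 with stimulation, and to 0.675 to 2.07 for the interaction. In order of mean scaled count, Hdc ran from 377 ± 320 (SD, n = 3) in unstimulated Mettl3 KO over 387 ± 245 in unstimulated c-Kit KO and 1805 ± 975.2 in stimulated c-Kit KO to 1824 ± 768 in stimulated Mettl3 KO, and the neighbours that share a stimulation state did not differ beyond their spread.

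Prostaglandin synthesis starts with the cyclooxygenases. Ptgs2 was near the background without stimulation. Raw counts of 10, 17 and 9 were read in the unstimulated c-Kit KO libraries, at or below the highest negative control probe of the same library in 3 of 3. In unstimulated libraries labelled Mettl3 KO they were 18, 37 and 9, at or below that probe in 2 of 3. Replicate 2 of Mettl3 KO was therefore the only unstimulated library with Ptgs2 above all of its negative controls.

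After stimulation, Ptgs2 was above the negative controls in all 6 libraries. For the c-Kit KO label, the scaled counts went from 13.7, 19.5 and 8.07 to 98.6, 64.6 and 73.3. Those labelled Mettl3 KO went from 18.3, 51.8 and 7.81 to 1365, 397 and 98.5. Stimulated and unstimulated libraries did not overlap in either genotype, which held, in the direction of higher counts, for 18.3% of the tested probes in c-Kit KO and 26.2% in Mettl3 KO.

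In libraries labelled Mettl3 KO, Ptgs2 rose, with a fitted fold change of 24.6 against a group in which 2 of 3 libraries were at background (95% interval 6.22 to 97.3, log2 fold change 4.62 ± 0.91 SE, n = 3 and 3, adjusted p = 0.00269 by edgeR's quasi-likelihood test), which ranked 17 of 545. The pairs gave ratios of 74.7, 7.68 and 12.6. In c-Kit KO, the fold change was 5.74 (95% interval 1.51 to 21.8, log2 fold change 2.52 ± 0.88 SE, n = 3 and 3), with adjusted p = 0.0699 by the same test. It passed the thresholds the study used (unadjusted p of at most 0.05 and fold change of at least 1.5), as did 33.8% of the probes, 18.9% as higher. Here and below these thresholds were applied to edgeR's unadjusted p, while the study used a t test. In an edgeR fit that blocks on the replicate number, Ptgs2 in c-Kit KO was called by the adjusted p too (log2 fold change 2.69, adjusted p = 0.0212). That fit called 156 probes (28.6%) in place of 103. The adjusted p for Mettl3 KO stayed below 0.05 without any 1 of its 6 libraries, and the log2 fold change was 3.29 without stimulated replicate 1 and 5.57 without unstimulated replicate 2. As the unstimulated counts were near background, the fold changes depend on how low counts are treated: with counts under 20 set to 20, the log2 fold change was 1.80 for c-Kit KO and 4.40 for Mettl3 KO, and with each library's mean negative control subtracted it was 4.97 and 5.96.

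**Figure D2:**
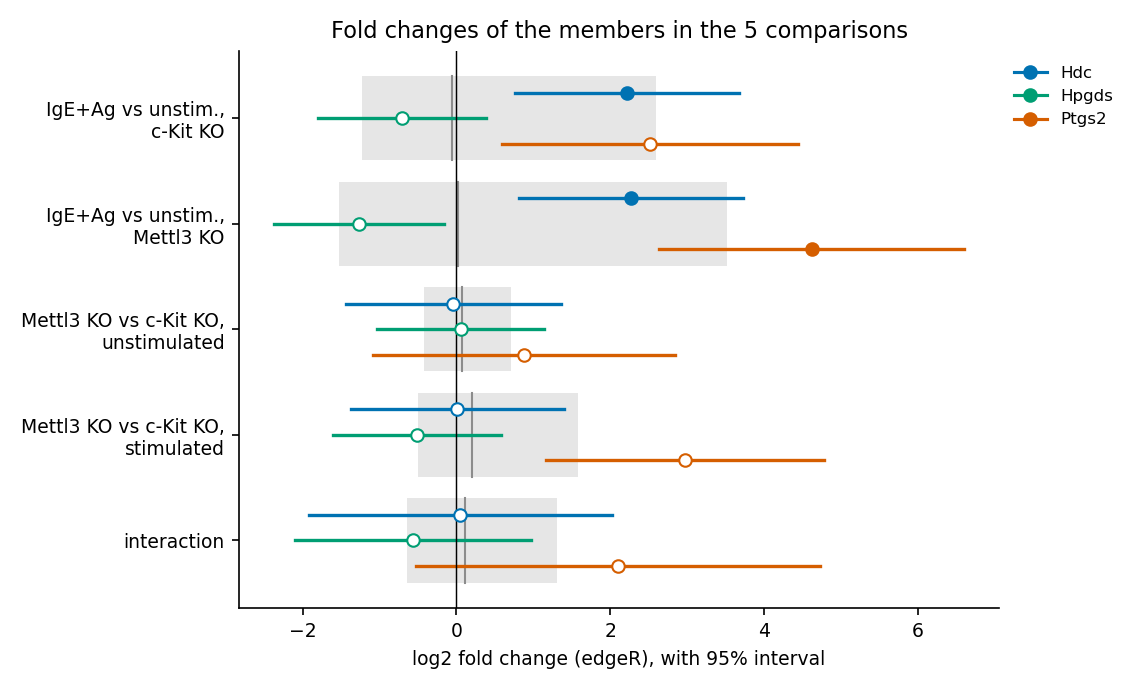
Log2 fold changes of Hdc, Hpgds and Ptgs2 with 95% intervals (edgeR) in the 5 comparisons, by labelled genotype, with stimulated samples marked IgE+Ag. Filled circles have an adjusted p under 0.05, open circles do not, and the grey bars span the 5th to 95th percentile of the 545 tested probes, with their median as a line. Ptgs2 lies beyond the grey bar for Mettl3 KO against c-Kit KO after stimulation, at 2.98, with its interval from 1.17 to 4.78.

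Stimulated libraries labelled Mettl3 KO had 7.87 times the Ptgs2 of those labelled c-Kit KO (95% interval 2.25 to 27.5, log2 fold change 2.98 ± 0.83 SE, n = 3 and 3, adjusted p = 0.133 by edgeR's quasi-likelihood test). This ranked 8 of 545 in a comparison in which 0.917% of the probes had an adjusted p under 0.05. The difference passed the study's thresholds, as did 14.1% of the probes, 13% as higher. Ptgs2 was higher in Mettl3 KO in 3 of 3 pairs, as were 35.8% of the tested probes, by 13.8, 6.16 and 1.34 times in replicates 1, 2 and 3. The groups overlapped, since replicate 3 of Mettl3 KO at 98.5 was just below replicate 1 of c-Kit KO at 98.6. With the replicate number as a block in edgeR, the difference was smaller, at 5.38 times (95% interval 1.88 to 15.3, adjusted p = 0.115).

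That difference depended on single libraries. Without the stimulated Mettl3 KO library of replicate 3, which the study numbers 5 elsewhere, the log2 fold change was 3.48 and the adjusted p 0.00867. Without stimulated replicate 1 of Mettl3 KO it was 1.65, with adjusted p = 0.441. In unstimulated libraries, Ptgs2 differed between the genotypes by a log2 fold change of 0.88 ± 0.90 SE (adjusted p = 0.997), which was 2.26 with background subtracted and 0.37 with counts under 20 set to 20, and 0% of the probes were called by the adjusted p (7 had an unadjusted p under 0.05). The interaction was 2.10 ± 1.20 SE on the log2 scale (adjusted p = 0.993), so that a larger response of Ptgs2 in Mettl3 KO was not shown by the test. With the replicate number as a block in edgeR, the interaction was 1.65 ± 1.04 SE (adjusted p = 0.788). It was 0.99 with background subtracted, 2.61 with counts under 20 set to 20, 0.77 without stimulated replicate 1 of Mettl3 KO and 3.05 without its unstimulated replicate 2. In the interaction, no probe had an adjusted p under 0.05 (0%), while 23 had an unadjusted p under 0.05 and DESeq2 called 2. The order of mean scaled counts of Ptgs2 was 13.8 ± 5.72 (SD, n = 3) in unstimulated c-Kit KO, 25.9 ± 23.0 in unstimulated Mettl3 KO, 78.8 ± 17.7 in stimulated c-Kit KO and 620 ± 662 in stimulated Mettl3 KO. In the last group the highest library had 13.9 times the count of the lowest.

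Hpgds, which acts after the cyclooxygenases, was detected in every library, with raw counts of 141 to 631. Libraries labelled c-Kit KO had scaled counts of 514, 612 and 301 without stimulation and 485, 286 and 103 with it. The groups overlapped, and replicate 1 was nearly level. Libraries labelled Mettl3 KO had 640, 540 and 303 without stimulation and 280, 181 and 154 with it. Every stimulated Mettl3 KO library was below every unstimulated one, which held for 17.6% of the tested probes.

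The stimulation fold change of Hpgds in libraries labelled Mettl3 KO was 0.415 (95% interval 0.193 to 0.892, log2 fold change -1.27 ± 0.51 SE, n = 3 and 3, adjusted p = 0.0748 by edgeR's quasi-likelihood test). It passed the study's thresholds, as did 42% of the probes, 15.8% as lower. With the replicate number as a block, Hpgds fell by 1.23 on the log2 scale with adjusted p = 0.00760, and it also had an adjusted p under 0.05 with TMM (0.0376) and DESeq2 (0.0104). In libraries labelled c-Kit KO, the fold change was 0.613 (95% interval 0.288 to 1.31, log2 fold change -0.71 ± 0.50 SE, adjusted p = 0.374), and with the block the log2 fold change was -0.87 with adjusted p = 0.0515. Hpgds was lower after stimulation in 3 of 3 pairs of each genotype, as were 32.3% of the probes in c-Kit KO and 27.9% in Mettl3 KO. Between the genotypes, the log2 difference, Mettl3 KO minus c-Kit KO, was 0.06 ± 0.50 SE without stimulation, with its sign turned under TMM and DESeq2, and -0.51 ± 0.50 SE with stimulation (adjusted p = 0.997 and 0.737), and the interaction was -0.56 ± 0.70 SE (adjusted p = 0.993). The fold intervals were 0.490 to 2.20 without and 0.330 to 1.501 with stimulation. Mean scaled counts ran from 205 ± 66.5 (SD, n = 3) in stimulated Mettl3 KO over 292 ± 191 in stimulated c-Kit KO and 476 ± 159 in unstimulated c-Kit KO to 494 ± 173 in unstimulated Mettl3 KO, and no neighbours in this order differed beyond their spread.

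Replicate 3 stood apart for Hdc and Hpgds. Hdc was highest in replicate 3 in 4 of 4 groups, as were 1.47% of the 545 probes, and lowest in replicate 1 in 4 of 4, as were 3.85%. Hpgds was lowest in replicate 3 in 4 of 4 groups, as were 8.99% of the probes. The unstimulated replicate 3 libraries thus had 658 and 738 scaled counts of Hdc and 301 and 303 of Hpgds, against at most 322 of Hdc and at least 514 of Hpgds in the other unstimulated libraries. The labels say nothing of how replicate 3 differed.

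**Figure D3:**
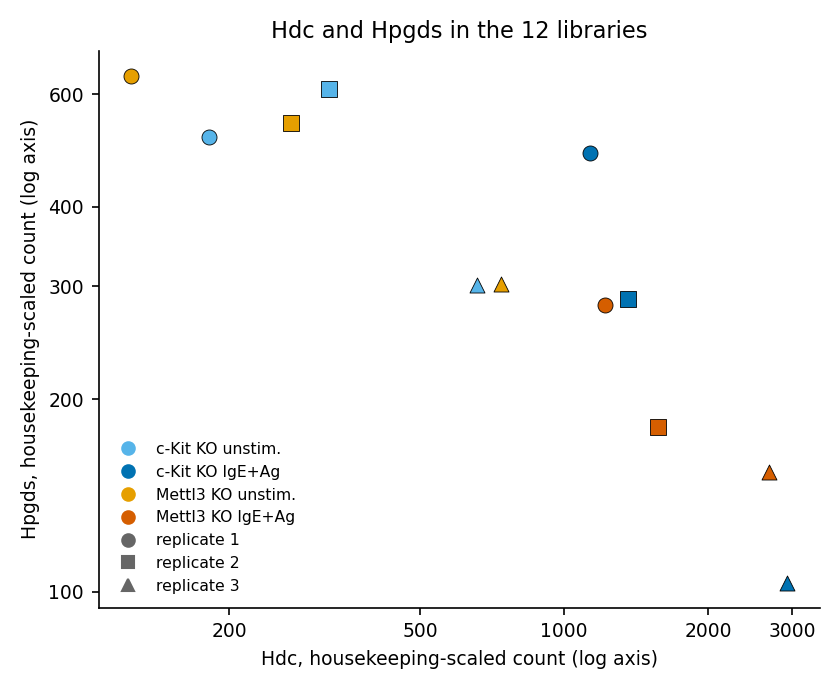
Scaled counts of Hdc against Hpgds (both axes log) in the 12 libraries, coloured by group, with the marker giving the replicate number. Libraries with more Hdc had less Hpgds, and the triangles of replicate 3 lie furthest right within each group.

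Across the 12 libraries, log2 counts of Hdc and Hpgds had a Pearson correlation of -0.88, and deviations from the group means one of -0.80. Hdc and Ptgs2 had a correlation of 0.54 over the libraries but of -0.54 for the deviations, and Hpgds and Ptgs2 had -0.40 and 0.52. These are descriptions over libraries that share stimulation, genotype and replicate sets.

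Likeness of pattern was measured by the Pearson correlation of log2 scaled counts over the 12 libraries, and the 5 closest probes are given for each member. For Hdc they were Tnfrsf9, a costimulatory receptor (r = 0.975), Tgfb1, a cytokine (0.944), C5ar1, the receptor for the complement fragment C5a (0.932), the adhesion molecule Ceacam1 (0.921) and the cytokine Il1b (0.913). For Hpgds they were the Toll-like receptor relative Cd180 (0.934), the signalling adaptor Lat2 (0.915), Birc2, an inhibitor of apoptosis (0.891), Smad1, a transcription factor (0.881), and Ms4a2, the beta chain of the IgE receptor (0.846). For Ptgs2 they were the cytokine Tnf (0.971), the transcription factor Atf3 (0.966), the chemokine Ccl4 (0.960), the transcription factor Cebpb (0.952) and the scavenger receptor Olr1 (0.949). Within groups these correlations were 0.675 to 0.926 for Hdc, 0.818 to 0.922 for Hpgds and 0.820 to 0.890 for Ptgs2, each among 545 probes.

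**Figure D4:**
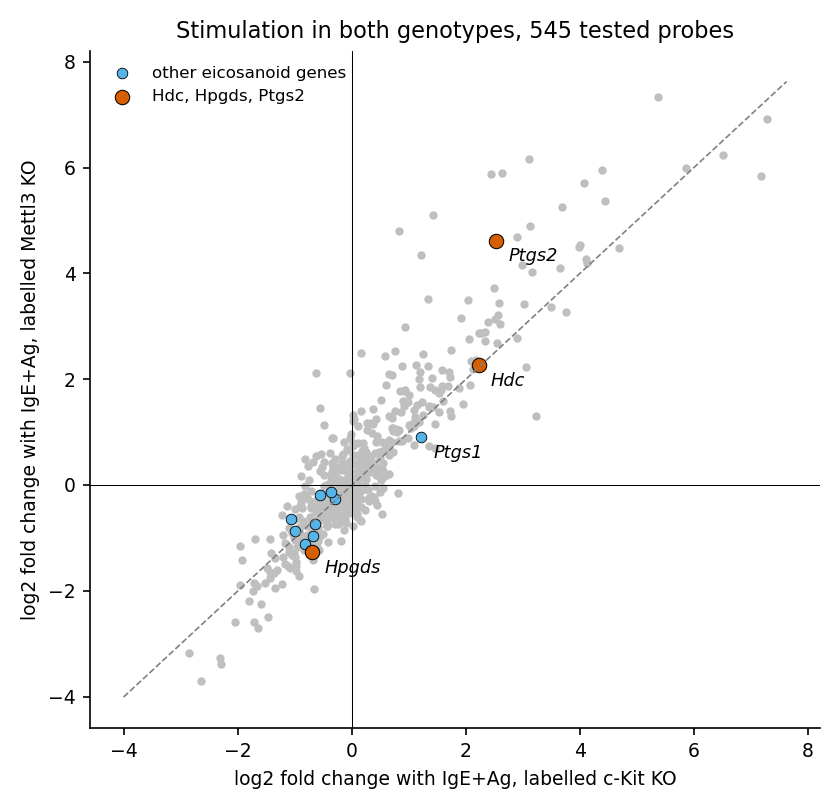
Log2 fold changes with stimulation in libraries labelled c-Kit KO (x axis) and Mettl3 KO (y axis) for the 545 tested probes (grey), the 3 members (orange) and 9 other genes of prostaglandin and leukotriene metabolism (blue). Hdc lies on the dashed line of equal change, at 2.22 and 2.27, Ptgs2 above it, at 2.52 and 4.62, and Hpgds below it, at -0.71 and -1.27. The axes share no libraries.

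Other genes of the eicosanoid pathways were read from a list of 14, of which 9 passed the filter. Ptgds, Alox15, Ptger2, Ptgdr2 and Cysltr1 did not, with raw counts of at most 28 in any library. With the c-Kit KO label, 0 of the 9 were called higher and 2 lower with stimulation by the adjusted p (6.79% of all tested probes were called lower). Their median log2 fold change was -0.65 against -0.05 over all tested probes. In libraries labelled Mettl3 KO, 0 were called higher and 2 lower (10.6% of all probes were called lower), with a median of -0.64 against 0.02. Of the 9, 8 had negative fold changes in each genotype, as did 54.7% of all tested probes in c-Kit KO and 48.6% in Mettl3 KO, but for Hpgd and Ptgdr the counts were at or below the highest negative control in 10 of 12 libraries. In the genotype comparisons and the interaction, 0 of the 9 were called, with medians of 0.01, 0.24 and 0.04 on the log2 scale against 0.08, 0.20 and 0.11 over all tested probes.

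**Figure D5:**
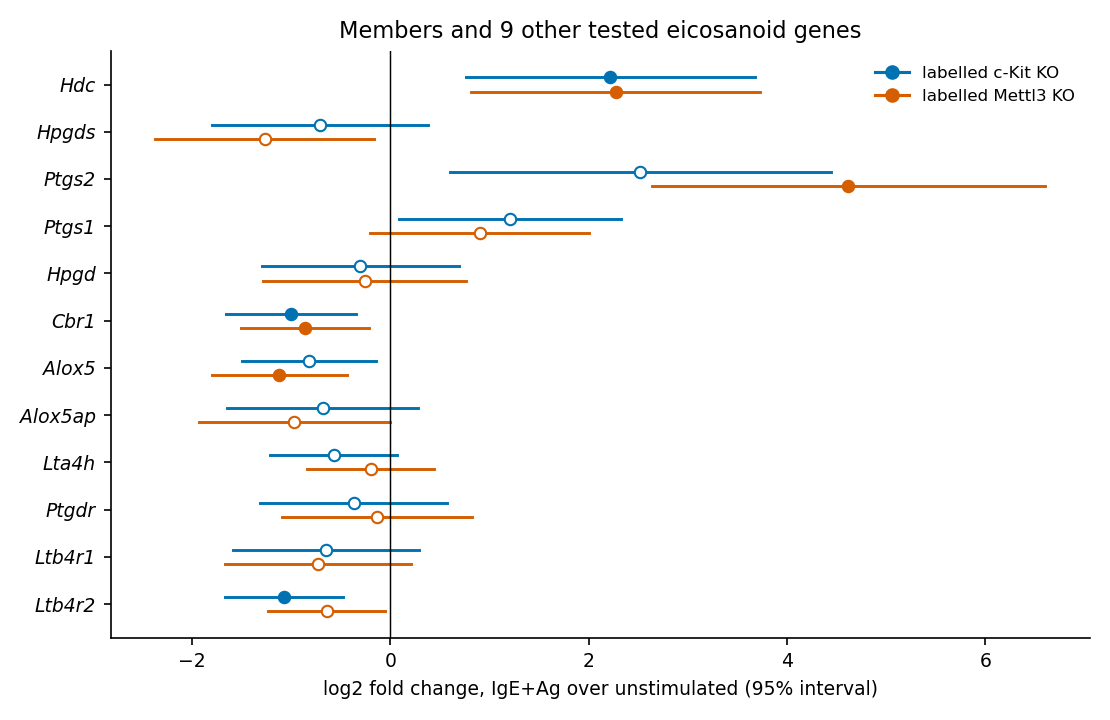
Log2 fold changes with stimulation and 95% intervals (edgeR) for Hdc, Hpgds, Ptgs2 and the 9 other tested eicosanoid genes, in libraries labelled c-Kit KO (blue) and Mettl3 KO (orange). Filled circles have an adjusted p under 0.05. Apart from the cyclooxygenases Ptgs1 and Ptgs2 and from Hdc, every gene shown has a negative point estimate in both genotypes.

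Ptgs1, the constitutive cyclooxygenase, was well detected and had positive fold changes. In libraries labelled c-Kit KO it was 314, 199 and 353 without and 550, 231 and 1218 with stimulation, and in those labelled Mettl3 KO 587, 344 and 431 without and 565, 790 and 1189 with it. The log2 fold changes were 1.21 ± 0.51 SE (adjusted p = 0.121) and 0.90 ± 0.51 SE (adjusted p = 0.210), and the groups overlapped in both. With edgeR's unadjusted p (0.0363), Ptgs1 passed the study's thresholds in c-Kit KO, as did 18.9% of the probes as higher. It did not pass them in Mettl3 KO. Of the prostaglandin genes downstream, Cbr1, a carbonyl reductase that converts prostaglandin E2, fell by 1.00 in c-Kit KO (adjusted p = 0.0368) and by 0.86 in Mettl3 KO (adjusted p = 0.0429) on the log2 scale. Its stimulated raw counts were low, at 29 to 58 in c-Kit KO and 36 to 55 in Mettl3 KO. They were above the highest negative control of each library, but only just in stimulated c-Kit KO replicate 2 (29 against 28). Hpgd, which inactivates prostaglandins, and Ptgdr, a receptor for prostaglandin D2, had at most 30 and 27 raw counts and log2 fold changes of -0.37 to -0.13.

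In the leukotriene branch, Alox5, the 5-lipoxygenase, fell by 1.12 on the log2 scale in libraries labelled Mettl3 KO (adjusted p = 0.0171), from 11783, 8435 and 10382 to 4162, 4514 and 5417 scaled counts. In libraries labelled c-Kit KO, its log2 fold change was -0.82 (adjusted p = 0.0887), and -0.83 with the replicate block (adjusted p = 0.0283). Ltb4r2, a low-affinity receptor for leukotriene B4, fell by 1.07 in c-Kit KO (adjusted p = 0.0192), with -0.64 in Mettl3 KO (adjusted p = 0.0942), and in each genotype it was at or below the highest negative control in 2 of 3 stimulated libraries, so that its stimulated values were near background. Alox5ap, the 5-lipoxygenase activating protein, had log2 fold changes of -0.68 and -0.97, Lta4h, which makes leukotriene B4, of -0.57 and -0.20, and the receptor Ltb4r1 of -0.65 and -0.73, in c-Kit KO and Mettl3 KO, none with an adjusted p under 0.05. With the block, 3 of the 9 were called lower in c-Kit KO, as were 12.3% of all probes. In Mettl3 KO 4 of the 9 were called lower with the block, the additions being Alox5ap (-0.89, adjusted p = 0.0275) and Ltb4r1 (-0.77, adjusted p = 0.0351). That fit called 40.9% of all probes and 15% as lower. These counts rested on few libraries: for c-Kit KO, 0 were called without unstimulated replicate 1 or 3 or without stimulated replicate 3. For Mettl3 KO, 0 were called without unstimulated replicate 1 or stimulated replicate 1 or 2, and 1 without unstimulated replicate 2 or stimulated replicate 3.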

How the data were processed

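The authors deposited raw nCounter barcode counts, without normalization, for 768 probes (734 endogenous, 20 housekeeping, 8 negative and 6 positive controls) in 12 libraries made from 40 ng of total RNA. Further deposited columns hold each probe's average, minimum and maximum count and its coefficient of variation and were not used. Every count column matched a sample, and 0 were left unmapped.

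Library sizes were set from the geometric mean of the 20 housekeeping probes. Probes with at least 20 counts in at least 3 libraries were tested with edgeR 4.0.16 in R 4.3.3 (quasi-likelihood test, 1 model of the 4 groups), with Benjamini-Hochberg adjustment over 545 probes and a threshold of 0.05. The script was tested on simulated counts. Replicates of a group differed by more than sampling noise (chi-square per degree of freedom 20.6 to 180). Replicate numbers come from the labels. Within-group deviations of the 18 same-numbered library pairs correlated at 0.136 to 0.521. Those of the 36 others correlated at -0.461 to 0.119. Deviations cancel within a group, so that the values of the 36 are not independent of those of the 18. From the same-numbered pairs, the numbers were taken to pair the samples, and a fit with the number as a block was an alternative. Other alternatives were TMM, 16 brighter housekeeping probes, DESeq2 1.42.0, limma 3.58.1 with and without moderation, other filters, 2 background treatments, fits of only the groups compared, and leaving out libraries.

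Genes, pathway and marker lists were chosen with earlier results of these data known. Named genes are the 3 members, the tested pathway genes, Kit and, for each member, the 5 probes with the highest Pearson correlation of log2(scaled count + 1) over the 12 libraries. Scaling by housekeeping probes assumes that these do not change with stimulation. The labels number the replicates without naming separate cultures or animals, and the paper describes them as 3 independent biological replicates. The p-values measure only the spread between these libraries, part of which may be technical.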

Additional observations from a re-analysis of the deposited data

How the results depend on the processing

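Of 330 recomputed member values over 27 alternatives, 263 kept direction and side of the threshold, 17 lost the adjusted p under 0.05, 17 gained it and 33 reversed, all 33 for genotype differences or interactions with adjusted p of at least 0.793. The replicate block changed no call other than those given with the results. TMM moved the median log2 fold change of all probes by -0.16 (stimulation, Mettl3 KO), -0.20 (genotypes, stimulated) and -0.16 (interaction), DESeq2 by -0.11, -0.22 and -0.15, and the 16 brighter housekeeping probes moved it by 0.10 (c-Kit KO) and 0.15 (Mettl3 KO). Among the calls for stimulation within Mettl3 KO, the share that was higher after stimulation was 67.4%, but 55.2% with TMM and 57.1% with DESeq2. The causes of the changes below were not tested.

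Stimulation, c-Kit KO (log2): Hdc was 2.24 with TMM and 2.29 with limma without moderation, in both no longer called (adjusted p = 0.0551 and 0.139). It was 1.68 to 2.84 without 1 library or replicate. Hpgds was -0.89, now called, with the replicate block without the stimulated Mettl3 KO library of replicate 3, and -1.29 to -0.30 in leave-outs. Ptgs2 was called with DESeq2 (2.57), limma without moderation (2.49), background subtracted (4.97), only the groups compared (2.52), the block (2.69) and the block without that library (2.58), and was 2.23 to 3.00 in leave-outs. Pathway genes called were 1 with the brighter housekeeping probes, a mean of 50 counts, background subtracted or only the groups compared, 0 with limma without moderation, and 0 to 2 in leave-outs. Panel genes called were 49 with limma without moderation, 156 with the block, 160 with the block without that library, and 32 to 107 in leave-outs.

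Stimulation, Mettl3 KO: Hdc was 2.00 with TMM and 2.56 with limma without moderation, in both no longer called (adjusted p = 0.0519 and 0.110). It was 1.86 to 3.22 in leave-outs. Hpgds was called with TMM (-1.40), DESeq2 (-1.35), only the groups compared (-1.27), the block (-1.23) and the block without that library (-1.47), and was -1.56 to -1.04 in leave-outs. Ptgs2 was 4.19 with limma without moderation and no longer called, and 3.09 to 5.81 in leave-outs, losing its call without replicate number 1. Pathway genes called were 4 with DESeq2 or the block, 1 with the brighter housekeeping probes, limma without moderation, no filter, background subtracted or only the groups compared, and 0 to 3 in leave-outs. Panel genes called were 68 with limma without moderation and 71 to 180 in leave-outs.

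Genotypes, unstimulated: Hdc reversed to 0.038 with TMM and 0.030 with DESeq2, and ran from -0.98 to 0.58 in leave-outs; Hpgds reversed to -0.0046 and -0.042, with -0.19 to 0.31; Ptgs2 ran from -0.075 to 1.34, and was 2.26 with background subtracted. Stimulated: Hdc reversed to -0.21 with TMM and -0.22 with DESeq2, with -0.37 to 0.55 in leave-outs; Hpgds ran from -0.91 to 0.076. Ptgs2 was called with DESeq2 (2.74, adjusted p = 0.00848) and with the block without that library (3.10, adjusted p = 0.0178), and ran from 1.65 to 3.48. Panel genes called were 23 with DESeq2, 12 with counts under 20 set to 20, 3 with background subtracted, 45 with the block without that library, 0 with limma without moderation or only the groups compared, and 0 to 33 in leave-outs. Interaction: Hdc reversed to -0.24 with TMM and -0.25 with DESeq2, with -0.57 to 1.00 in leave-outs, Hpgds ran from -0.97 to 0.020, and Ptgs2 from 0.76 to 3.05. Panel genes called were 2 with DESeq2, 3 with the block without that library and 0 to 5 in leave-outs. The highest negative control probe gave 10 to 38 counts per library. Ptgs2 counts at or below that probe of the same library cannot be told from background, which limits its unstimulated values.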
